A study of Homo sapiens with 11 samples.

Results

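The 10 genes described here form the calcium store machinery of the heart muscle cell: the pump ATP2A2 with its small regulators PLN and SLN, the release channel RYR2, the luminal and junctional proteins CASQ2, TRDN, ASPH, JPH2 and HRC, and the surface exchanger SLC8A1. They were taken by name, and not by a threshold on their values, from the 19990 genes in the count table, and all 10 were found and tested. The study followed cardiomyocytes made from WTC11, an induced pluripotent stem cell line, at passage 63. Cells were driven towards heart muscle with CHIR99021, an activator of Wnt signalling, and then IWP2, an inhibitor of it, and were kept from then on in RPMI1640 with B27 and insulin. Wells were collected after 30 days (4 wells), 60 days (3) and 113 days (4) of culture, and their poly(A) RNA was sequenced. All wells came from 1 differentiation of 1 line, with no other genotype, line or treatment, so the spread given below is between wells and not between differentiations. No untreated or native heart sample was among the groups, and the day of culture and the collection to which a well belongs cannot be told apart.

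In a beating heart muscle cell, a little calcium enters through the L-type channel and makes RYR2 release much more from the sarcoplasmic reticulum. ATP2A2 (the SERCA2 pump) returns that calcium to the store, held back by phospholamban (PLN) and sarcolipin (SLN), while SLC8A1 (the sodium-calcium exchanger NCX1) carries the rest out of the cell. Inside the store calsequestrin 2 (CASQ2) binds calcium and is tied to RYR2 by triadin (TRDN) and junctin, a short product of ASPH, and junctophilin 2 (JPH2) holds the store membrane close to the surface membrane. Cardiomyocytes from stem cells are known for an immature store, and long culture is one of the means used to mature them.

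Levels are given as CPM, a gene's share of its library's counts scaled to a common depth, after TMM scaling, which evens out differences in composition between libraries. The 11 libraries held between 24071375 and 34546715 counts each. Changes are log2 fold changes with their standard error (SE) from edgeR's quasi-likelihood test on all 19990 genes. A gene was called where its p, adjusted by Benjamini-Hochberg over all of these genes, was under 0.05. The 95% intervals given below are approximate, since they use the normal distribution's multiple of the SE and not the quasi-likelihood test. They can be too narrow and leave out 0 where the unadjusted p is over 0.05, so no call rests on them. All 10 of the cardiomyocyte markers examined were present, and their summed level was 30200 to 43000 CPM at Day 30, 36600 to 44100 at Day 60 and 34100 to 38000 at Day 113. MYH7 was the largest of them, with means of 15412, 14522 and 9277 CPM on the 3 days in turn. From Day 30 to Day 113 TNNT2, TNNC1 and TNNI1 rose while MYH7 and ACTN2 fell. Markers of other cells also moved: the sum of 6 endothelial markers was 73.5 to 102 CPM at Day 30, 46.9 to 74.5 at Day 60 and 208 to 793 at Day 113, and that of 8 fibroblast markers was 3350 to 7710, 2070 to 3570 and 5430 to 13000. Most of the fibroblast sum was from COL1A1, COL1A2 and COL3A1. From Day 30 to Day 113 4 of the 8 rose while PDGFRA and LUM fell, where 17.3% of all genes rose and 17.2% fell. A sum of 6 endoderm markers was 401 to 1170 CPM at Day 30 and 25.8 to 52.9 across the later days. The part of these cells in the changes below was not tested, and in bulk RNA fewer cells of a type and less RNA per cell cannot be told apart.

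Of the 10 genes, PLN and CASQ2 rose and SLN fell from Day 30 to Day 60. From Day 60 to Day 113, PLN, HRC and ASPH fell and none rose. Over the whole span CASQ2 rose and SLN, HRC and ASPH fell. ATP2A2, RYR2, TRDN, JPH2 and SLC8A1 passed the test in none of these comparisons. The 3 comparisons share wells, so they are not independent of each other.

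Set against all genes, 3 of 10 were called between Day 30 and Day 60, where 10.3% of the 19990 genes were called. These were 2 higher and 1 lower, against 4.39% and 5.91% of all genes. From Day 60 to Day 113 it was 3 of 10 against 24%, with none higher and 3 lower against 12.9% and 11.1%. From Day 30 to Day 113 it was 4 of 10 against 34.5%, with 1 higher and 3 lower against 17.3% and 17.2%. The whole-span and later shares are near the background. The wells of the days compared did not overlap for 3, 3 and 4 of the genes, the same ones that were called, against 24.8%, 30.6% and 35.1% of all genes. The median log2 fold change of the 10 genes was 0.10, -0.20 and -0.01, beside -0.01, 0.00 and -0.02 over all genes. Together the 10 genes took 0.780% to 0.946% of a library's counts at Day 30, 0.925% to 1.15% at Day 60 and 0.726% to 0.919% at Day 113.

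**Figure D1:**
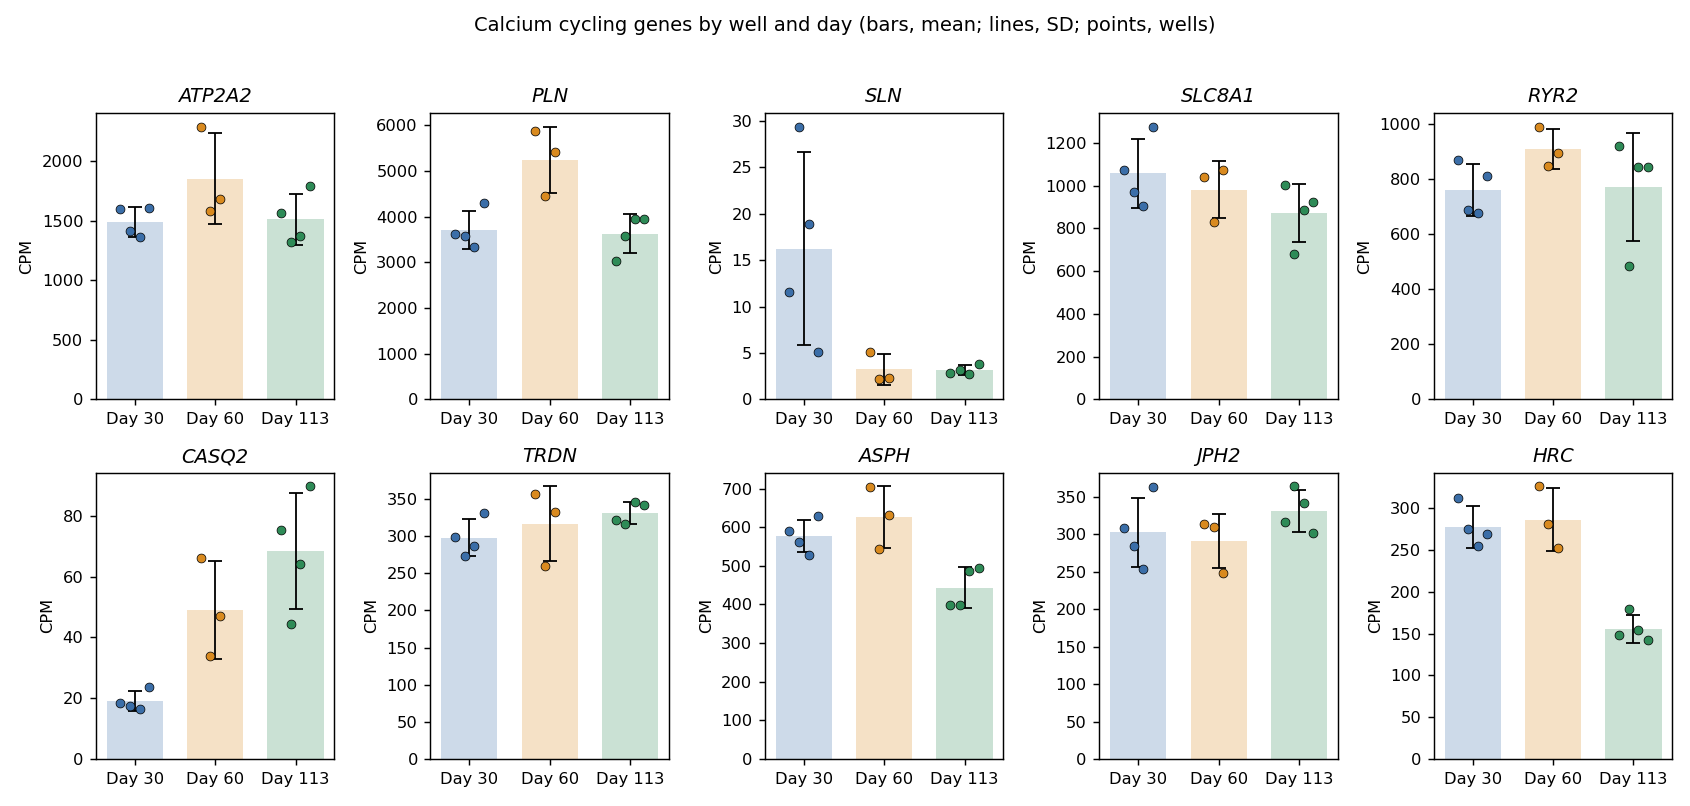
CPM of each of the 10 genes (y axis, its own scale for each gene, from 0) by day of culture, with 1 point for each well, bars at the mean and lines for the SD. PLN is highest at Day 60, CASQ2 is higher at both later days than at Day 30, SLN is lower at both, and HRC and ASPH are lowest at Day 113.

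The pump itself did not pass the test at any step. ATP2A2 (chromosome 12, 110280756 to 110351093, plus strand, GRCh38) was at 1593.1, 1410.1, 1358.5 and 1603.9 CPM in the 4 wells of Day 30, at 2285.9, 1583.9 and 1684.0 CPM at Day 60, and at 1566.8, 1320.7, 1367.1 and 1790.9 CPM at Day 113. One well of Day 60 stood above all others and the 3 days overlapped. Its mean at Day 30 was 1491 ± 126 CPM (SD, n = 4), against 1851 ± 380 CPM (SD, n = 3) at Day 60 and 1511 ± 215 CPM (SD, n = 4) at Day 113. The log2 fold change was 0.31 ± 0.14 (SE) from Day 30 to Day 60 (edgeR adjusted p = 0.184), -0.29 ± 0.14 from Day 60 to Day 113 (adjusted p = 0.142) and 0.02 ± 0.13 over the whole span (adjusted p = 0.928). The 95% interval of that last difference ran from -0.23 to 0.27.

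PLN, the main brake on the pump in the ventricle, had a peak at Day 60. It lies on chromosome 6 (118548298 to 118560730, plus strand), inside an intron of CEP85L, which is read from the other strand. The 250 bases before its start are shown because PLN changed in both steps. The capitals mark CAACTG, a match to the E-box pattern CANNTG, and the region is chr6:118548046-118548295 on the plus strand of GRCh38.p14 (RefSeq):
PLN: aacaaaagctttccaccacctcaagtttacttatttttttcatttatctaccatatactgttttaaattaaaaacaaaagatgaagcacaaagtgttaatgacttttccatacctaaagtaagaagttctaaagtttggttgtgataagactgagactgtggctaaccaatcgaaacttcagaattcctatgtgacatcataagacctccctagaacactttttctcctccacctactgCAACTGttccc

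PLN was at 3615.9, 3580.0, 3340.1 and 4289.9 CPM at Day 30, at 5863.7, 4454.9 and 5407.7 CPM at Day 60, and at 3035.2, 3571.6, 3942.6 and 3943.2 CPM at Day 113. Every well of Day 60 was above every well of the other days, and Day 30 and Day 113 overlapped. PLN rose by 0.50 ± 0.13 (log2, SE) to Day 60, which is 1.41-fold (edgeR adjusted p = 0.0194), and fell by 0.53 ± 0.13 on the log2 scale to Day 113 (adjusted p = 0.00688). Day 113 and Day 30 differed by -0.03 ± 0.12 (adjusted p = 0.865), with a 95% interval of -0.27 to 0.20. The rise is the less secure of the steps. It missed the threshold without any 1 of 5 wells, Day 30 replicate 1, 2 or 3 (adjusted p = 0.0558, 0.0510 and 0.0638) and Day 60 replicate 1 or 3 (0.0937 and 0.0735), and with libraries scaled to 5 cardiomyocyte genes (0.44, adjusted p = 0.103). Its adjusted p ran from 7.1e-04 to 0.103 over the 22 alternatives tried, while the fall after Day 60 was called in all of them. Of the 22, the fit with no filter on low counts repeats the main fit, since the filter removed no gene. CEP85L held 0.352% as many counts as PLN and passed the test in no comparison.

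SLN, the pump's other small inhibitor and one found chiefly in the atria and in skeletal muscle, fell early and stayed low. The gene (chromosome 11, 107707378 to 107719693, minus strand) was at 11.6, 29.4, 18.9 and 5.12 CPM at Day 30, from 304, 880, 575 and 149 counts. It was at 5.11, 2.21 and 2.33 CPM at Day 60 and at 2.83, 3.15, 2.77 and 3.85 CPM at Day 113, with no well of those days above 160 counts. The lowest well of Day 30 lay just above the highest of Day 60, so the days did not overlap, but the 4 wells of Day 30 covered a wide range. SLN fell by 2.33 ± 0.46 (log2, SE) to Day 60, which is 5.04-fold (edgeR adjusted p = 0.00422), then differed by -0.04 ± 0.45 (adjusted p = 0.967). Over the whole span it fell by 2.37 ± 0.42 (adjusted p = 3.9e-04). Both falls were called in all 22 alternatives. Of 6 skeletal muscle markers 2 were in the table, and they summed to at most 1.56 CPM in any library. Atrial markers were present on all days, at 7120 to 9660, 9080 to 9670 and 9130 to 13500 CPM in sum. Most of that sum was from MYL7 and MYL4, with means of 5800 and 2284 CPM at Day 30. From Day 30 to Day 113, 4 of the 8 atrial markers rose and 1 fell, and of 6 ventricular markers 1 rose and 3 fell. Of all genes 17.3% rose and 17.2% fell.

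Ratios inside a library need no scaling for depth. Between genes of unlike length they describe how a balance changed and not its level. Effects of transcript length in a library, such as that of Day 113 replicate 2 described below, stay in them. The log2 ratio of PLN counts to ATP2A2 counts averaged 1.31 ± 0.10 (SD, n = 4), 1.51 ± 0.16 (SD, n = 3) and 1.26 ± 0.27 (SD, n = 4) on the 3 days in turn. The days overlapped, and the difference was 0.20 to Day 60 (2-sided exact permutation p = 0.114) and -0.05 over the whole span (exact p = 0.8). The ratio of SLN to ATP2A2 averaged -6.78, -9.25 and -8.90, a difference of -2.12 between Day 30 and Day 113 (exact p = 0.0286). SLN to PLN differed by -2.07 over that span (exact p = 0.0286). From Day 30 to Day 60 these ratios differed by -2.47 and -2.67 (exact p = 0.0571 for each) without overlap. Of 21 ratio tests, 7 reached 0.0286, the smallest p these designs can give, and none passed after adjustment over the 21 (smallest adjusted p = 0.0857).

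**Figure D2:**
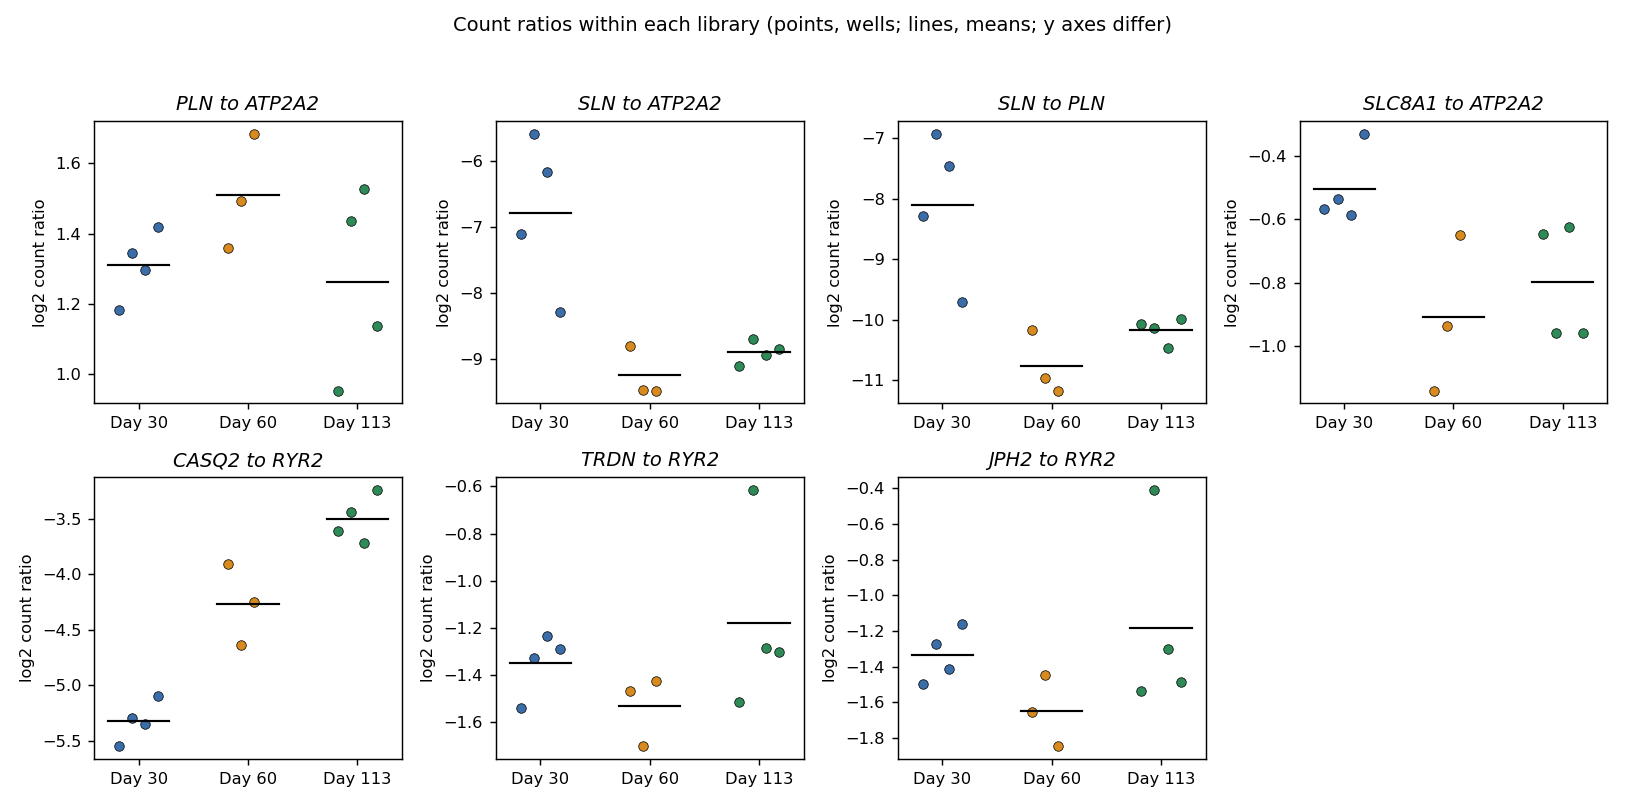
Log2 ratio of the counts of a pair of genes inside each library (y axis, scale differs between panels) by day, with 1 point for each well and a line at the mean. CASQ2 to RYR2 steps up at each day without overlap, SLN to ATP2A2 and SLN to PLN are highest at Day 30, and PLN to ATP2A2 overlaps between days.

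SLC8A1, the main route by which calcium leaves the cell, passed the test at no step. The gene spans chromosome 2, 40097270 to 40611053, on the minus strand. It was at 1074.6, 971.8, 905.5 and 1274.3 CPM at Day 30, at 1037.8, 828.1 and 1074.5 CPM at Day 60, and at 1000.9, 679.7, 887.0 and 922.1 CPM at Day 113. The days overlapped. The log2 difference over the whole span was -0.28 ± 0.13 (SE), with an edgeR adjusted p of 0.128. Its approximate 95% interval of -0.54 to -0.01 left out 0 although the unadjusted edgeR p was 0.057, so that interval is too narrow. With the well number as a block the whole-span difference was -0.28 with an adjusted p of 0.0422. Scaled to the cardiomyocyte genes it was -0.52 with an adjusted p of 0.0256, so this call turns on the fit. That scaling moved the median of all genes to -0.31, and relative to this median SLC8A1 was at -0.21. Without Day 113 replicate 2, the lowest well, the whole-span difference was -0.17 (adjusted p = 0.294). The step from Day 60, -0.17 ± 0.14 with all wells (adjusted p = 0.447), was then -0.06 (adjusted p = 0.769). Relative to the pump, the log2 ratio of SLC8A1 to ATP2A2 averaged -0.51 ± 0.12 (SD, n = 4), -0.91 ± 0.25 (SD, n = 3) and -0.80 ± 0.19 (SD, n = 4) in the same order. Both later days lay below Day 30 without overlap, by -0.40 and -0.29 (exact permutation p = 0.0286 for each, adjusted p = 0.0857).

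RYR2, the calcium release channel, was at 870.5, 687.8, 676.1 and 810.4 CPM at Day 30 and at 990.4, 847.4 and 894.2 CPM at Day 60. At Day 113 it was at 919.3, 483.4, 844.1 and 845.3 CPM. The gene covers chromosome 1, 237042205 to 237833988, on the plus strand. Replicate 2 of Day 113 was the lowest of all 11 wells, and the days overlapped. The log2 difference was 0.26 ± 0.17 (SE) to Day 60 (edgeR adjusted p = 0.419), -0.24 ± 0.17 from there to Day 113 (adjusted p = 0.353) and 0.02 ± 0.16 over the whole span (adjusted p = 0.931). Without replicate 2 of Day 113 the step from Day 60 was -0.07 (adjusted p = 0.714) and the whole-span difference 0.19 (adjusted p = 0.156).

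That well was low across long transcripts. Among 548 genes with a coding transcript of at least 10 kb and 5 CPM, its median log2 deviation from the mean of Day 113 was -0.32, while 2039 genes under 2 kb were at 0.27. In the other 10 libraries the long genes were between -0.06 and 0.17. RYR2 deviated by -0.63 there, SLC8A1 by -0.35, and TTN, which encodes the giant sarcomere protein titin, by -0.95 (2534.7 CPM). CASQ2 was also low there, at -0.57, though its longest coding transcript has only 2674 bases. The log2 ratio of JPH2 to RYR2 was -0.41 in that well and -1.54, -1.30 and -1.48 in the other wells of Day 113. What sets this library apart was not tested.

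**Figure D3:**
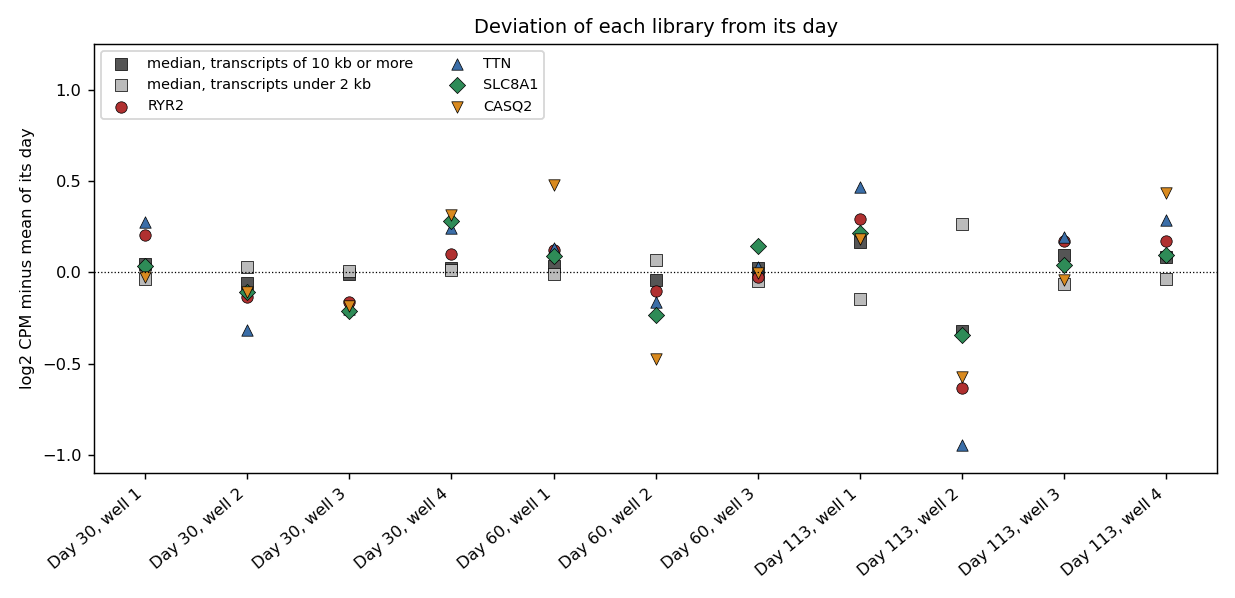
Log2 CPM of each library minus the mean of its day (y axis) for the median long gene (548 of at least 10 kb), the median short gene (2039 under 2 kb), RYR2, TTN, SLC8A1 and CASQ2, by library (x axis). Day 113 replicate 2 is lowest for the long genes (-0.32) and highest for the short genes (0.27).

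CASQ2, the calcium buffer inside the store, rose most of the 10. It lies on chromosome 1 (115700007 to 115768781, minus strand). The stretch before its first annotated exon is shown because it is the member with the largest rise. It is chr1:115768782-115768964, minus strand, GRCh38.p14 (RefSeq). The first run of capitals is a match to the MEF2 pattern, the binding pattern of a family of muscle transcription factors, and the next is CAACTG, a match to CANNTG:
CASQ2: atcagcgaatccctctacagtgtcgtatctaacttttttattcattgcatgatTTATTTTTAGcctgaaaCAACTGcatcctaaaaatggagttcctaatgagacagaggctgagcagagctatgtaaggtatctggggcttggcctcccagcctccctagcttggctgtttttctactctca

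The MEF2 pattern occurs in 2.8% of the 35116 promoters in the RefSeq table and CANNTG in 61.8%, both strands searched. Promoter entries of 8 members were searched, 11 entries in all, and none of SLN or ASPH. The MEF2 pattern was found in CASQ2 and, as 2 overlapping matches, at 1 start of ATP2A2. The CArG pattern, found in 1.16% of promoters, was in none of the 11. A match describes letters and not binding.

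CASQ2 was at 18.6, 17.5, 16.6 and 23.6 CPM at Day 30, at 66.2, 33.9 and 47.1 CPM at Day 60, and at 75.5, 44.5, 64.3 and 89.7 CPM at Day 113. All wells of both later days were above all wells of Day 30, and the later days overlapped each other. CASQ2 rose by 1.36 ± 0.22 (log2, SE) to Day 60, which is 2.57-fold (edgeR adjusted p = 0.00106), and by 1.84 ± 0.21 to Day 113, which is 3.59-fold (adjusted p = 8.6e-06). Both were called in all 22 alternatives. The step from Day 60 to Day 113 was 0.48 ± 0.22 (adjusted p = 0.137). It was called without Day 60 replicate 1 (0.75, adjusted p = 0.0444) or without Day 113 replicate 2 (0.64, adjusted p = 0.0311). Against the channel it serves, the log2 ratio of CASQ2 to RYR2 averaged -5.32 ± 0.19 (SD, n = 4), -4.26 ± 0.37 (SD, n = 3) and -3.50 ± 0.21 (SD, n = 4). The steps of 1.06 and 0.76 and the whole difference of 1.82 were each without overlap (exact permutation p = 0.0286 for each, adjusted p = 0.0857).

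TRDN and JPH2, which anchor the channel complex and the junction, passed the test in no comparison. TRDN (chromosome 6, 123216339 to 123637093, minus strand) was at 299.5, 273.7, 287.2 and 331.4 CPM at Day 30, at 357.2, 260.2 and 332.2 CPM at Day 60, and at 321.6, 315.9, 345.9 and 342.5 CPM at Day 113. Its log2 difference over the whole span was 0.15 ± 0.10 (SE), with an edgeR adjusted p of 0.274 and a 95% interval of -0.05 to 0.36. JPH2 (chromosome 20, 44111695 to 44187578, minus strand) was at 308.7, 285.0, 254.1 and 362.9 CPM, then at 314.4, 310.4 and 249.0 CPM, then at 316.6, 364.1, 342.7 and 302.1 CPM. Its difference over the whole span was 0.13 ± 0.12 (adjusted p = 0.423), with a 95% interval of -0.10 to 0.36. TRDN-AS1, an antisense gene that shares no exon with TRDN, held 7.88% as many counts and rose by 0.66 ± 0.17 to Day 60 (adjusted p = 0.0178) and by 0.77 ± 0.16 to Day 113 (adjusted p = 0.00115). Strand use in the counting is not given in the sources used here, so reads of the pair may be mixed.

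HRC, a histidine-rich calcium-binding protein of the store lumen, fell after Day 60. The 222 bases before its first exon are shown because it had the most significant fall of the 10. They are chr19:49155425-49155646, minus strand, GRCh38.p14 (RefSeq), and the capitals mark CAGCTG, a match to CANNTG:
HRC: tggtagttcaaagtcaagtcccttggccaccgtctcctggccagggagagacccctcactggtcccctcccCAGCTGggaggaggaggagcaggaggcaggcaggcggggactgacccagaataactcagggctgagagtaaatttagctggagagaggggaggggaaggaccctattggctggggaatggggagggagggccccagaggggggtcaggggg

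HRC (chromosome 19, 49151198 to 49155424, minus strand) was at 312.6, 275.6, 254.5 and 269.0 CPM at Day 30, at 326.3, 281.2 and 252.2 CPM at Day 60, and at 147.8, 180.1, 154.6 and 142.1 CPM at Day 113. All 4 wells of Day 113 were below all 7 earlier wells, and the earlier days overlapped. HRC differed by 0.04 ± 0.11 (log2, SE) between Day 30 and Day 60 (edgeR adjusted p = 0.883). It then fell by 0.88 ± 0.11, which is 1.83-fold (adjusted p = 7.3e-05), and was lower than at Day 30 by 1.78-fold (adjusted p = 2.2e-05). Both were called in all 22 alternatives.

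ASPH encodes junctin and, from the same gene, an enzyme that hydroxylates aspartate and asparagine. It was at 591.2, 562.0, 529.4 and 628.4 CPM at Day 30, at 703.1, 544.9 and 631.1 CPM at Day 60, and at 398.2, 397.5, 486.0 and 493.2 CPM at Day 113. All wells of Day 113 were below all earlier wells. ASPH fell by 0.50 ± 0.12 (log2, SE) from Day 60 to Day 113 (edgeR adjusted p = 0.00558) and by 0.38 ± 0.11 from Day 30 (adjusted p = 0.0118), and both were called in all 22 alternatives. The counts are for the whole gene, so junctin cannot be told apart from the enzyme. Its position is chromosome 8, 61500556 to 61714640, on the minus strand.

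**Figure D4:**
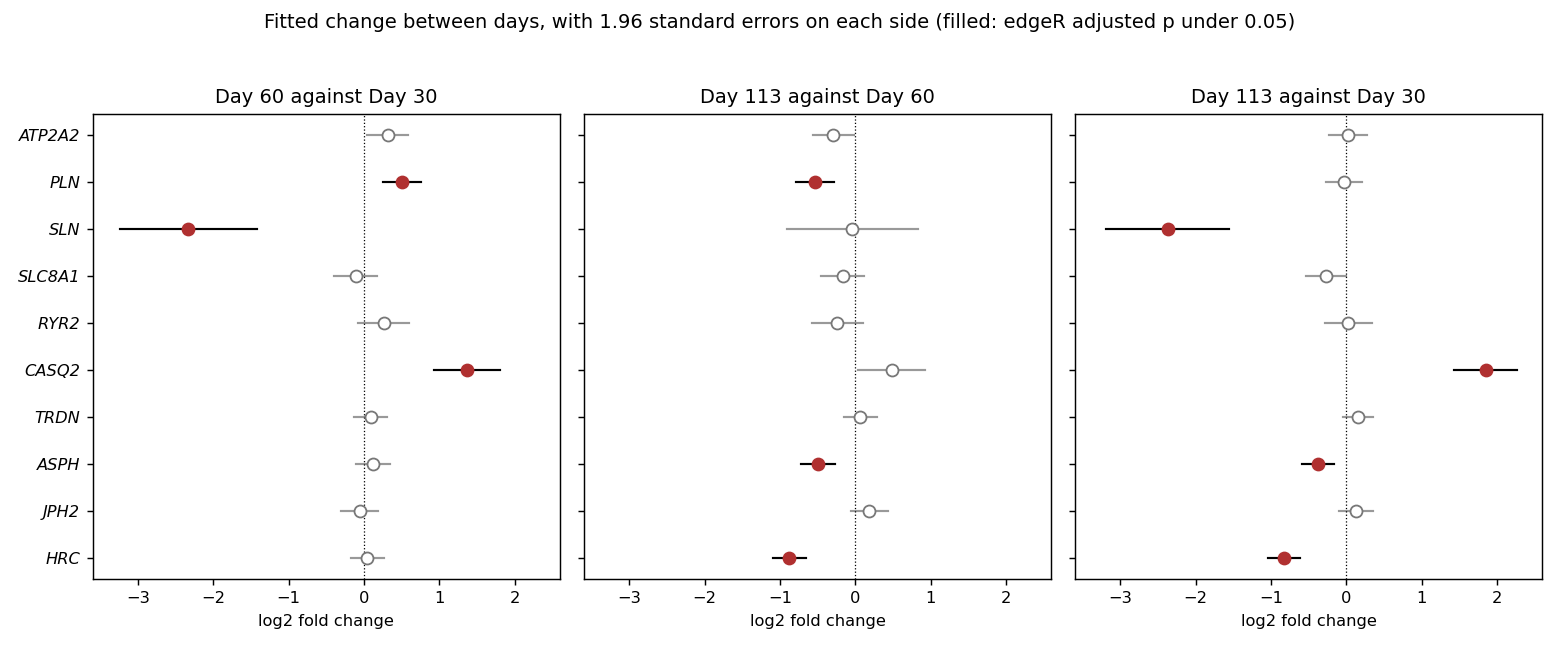
Fitted log2 fold change of each of the 10 genes (x axis) in the 3 comparisons, 1 panel each. Lines are the approximate 95% interval, a normal multiple of the SE that can be too narrow. Filled points mark an edgeR adjusted p under 0.05. CASQ2 is to the right and SLN to the left in both comparisons with Day 30, and HRC is to the left in both comparisons with Day 113.

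Whether the change after Day 60 differed from the change before it was tested as a difference of the 2 steps. It was called for 2 of the 10 genes, PLN and HRC, both negative, where 9.34% of all genes were called (4.97% positive and 4.38% negative). For PLN the difference was -1.03 ± 0.22 (log2, SE; edgeR adjusted p = 0.00954), from a rise followed by a fall. For HRC it was -0.92 ± 0.20 (adjusted p = 0.00934), from no called change followed by a fall. Without Day 60 replicate 1 neither passed (PLN -0.89, adjusted p = 0.0786; HRC -0.74, adjusted p = 0.0756), and without Day 60 replicate 3 PLN did not (-1.02, adjusted p = 0.0562). For ASPH the difference was -0.61 ± 0.20 (adjusted p = 0.0698). It was called with DESeq2 (adjusted p = 0.0210), with upper-quartile scaling (0.0393), with the well number as a block (0.0274) and without Day 60 replicate 2 (0.0461). SLN had 2.30 ± 0.82 (adjusted p = 0.0947) and was called with DESeq2 (0.0291) and without Day 30 replicate 4 (0.0219). The block also called ATP2A2 (-0.71, adjusted p = 0.0179) and CASQ2 (-1.09, adjusted p = 0.0120). Without the block they were at -0.60 (adjusted p = 0.134) and -0.88 (adjusted p = 0.174). Deviations of same-numbered wells from their day means correlated at 0.0014 to 0.289 in pairs with Day 60. What a number marks is not stated.

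Libraries were also scaled to the geometric mean of TNNT2, TNNC1, ACTN2, MYBPC3 and ACTC1, which sets the store genes against contractile genes of the same cells. These reference genes were not constant under TMM scaling. From Day 30 to Day 113 TNNC1 and TNNT2 rose by 1.04 and 0.66 on the log2 scale (edgeR adjusted p = 4.1e-04 and 0.00324). ACTN2 fell by 0.64 (adjusted p = 4.0e-04), and ACTC1 at 0.49 and MYBPC3 at -0.18 were not called. The reference scaling moved the median log2 fold change of all genes to -0.08, -0.21 and -0.31 in the 3 comparisons. The share of called genes that were higher went from 53.7% to 24.2% between Day 60 and Day 113, and from 50.2% to 21.2% over the whole span. Relative to those medians, from Day 30 to Day 113 CASQ2 was at 1.92, SLN at -2.43, HRC at -0.82 and ASPH at -0.34. SLC8A1, called under this scaling at -0.52, was at -0.21 relative to the median, and PLN at 0.0033. ATP2A2 was at 0.06, RYR2 at 0.09, TRDN at 0.19 and JPH2 at 0.17. Before the median is taken off, those last 4 genes had a negative sign under this scaling (-0.24, -0.22, -0.12 and -0.14), none of them called.

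Per kilobase of exon, PLN was the most abundant of the 10 at each day, at 1852 ± 204 (SD, n = 4), 2620 ± 359 (SD, n = 3) and 1811 ± 215 (SD, n = 4) CPM per kb. ATP2A2 came next at 263, 327 and 267 CPM per kb. HRC followed at 117 and 120 CPM per kb at Days 30 and 60 and at 65.5 at Day 113, where it was close to JPH2 at 55.8 and TRDN at 54.3. JPH2, SLC8A1, TRDN and RYR2 were at 45.7 to 50.9 CPM per kb at Day 30, differences within their spread. SLN and CASQ2 changed places at the bottom: SLN was at 17.9 ± 11.5 and CASQ2 at 7.13 ± 1.18 CPM per kb at Day 30, and at 3.48 ± 0.55 and 25.6 ± 7.14 at Day 113 (SD, n = 4 each). ASPH was at 34.5, 37.4 and 26.5 CPM per kb over all its exons but at 91.2, 98.8 and 70.0 over its longest coding transcript, so its place depends on the length used. By longest coding transcript HRC at Day 113 also lay below ASPH, TRDN at 69.5 and JPH2 at 69.2 CPM per kb, differences within their spread.

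The other genes of calcium handling gave the setting of these changes. Of 59 listed by role, 57 were in the table, and 13 rose and 11 fell from Day 30 to Day 113, beside 17.3% and 17.2% of all genes. From Day 30 to Day 60, 7 rose and 5 fell, beside 4.39% and 5.91% of all genes. From Day 60 to Day 113, 9 rose and 6 fell, near the 12.9% and 11.1% of all genes. Their median log2 fold changes were 0.05, -0.06 and 0.04 in that order of Day 60 against Day 30, Day 113 against Day 60 and Day 113 against Day 30.

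Partners of the release channel moved in both directions from Day 30 to Day 113. FKBP1A, an immunophilin that binds ryanodine receptors, rose by 0.58 ± 0.10 (log2, SE; edgeR adjusted p = 2.3e-04). FKBP1B, its close relative and the form bound to RYR2 in heart, fell by 1.30 ± 0.26 (adjusted p = 0.00106) at a low level, from 7.89 to 3.22 CPM. S100A1 (1.58 ± 0.35, adjusted p = 0.00213) and SRI, which encodes sorcin (0.49 ± 0.10, adjusted p = 9.9e-04), rose as well.

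Of 11 other junction proteins, 3 fell and 1 rose over the whole span, beside 17.2% and 17.3% of all genes. JPH3, a junctophilin better known from brain, fell by 1.05 ± 0.12 (log2, SE; edgeR adjusted p = 1.1e-05). TMEM38A, a potassium channel of the store, fell by 1.00 ± 0.18 (adjusted p = 5.6e-04), and SRL (sarcalumenin) fell by 0.93 ± 0.11 (adjusted p = 9.1e-06). SPEG, a kinase of the junction, rose by 0.55 ± 0.11 (adjusted p = 0.00125). TECRL fell after Day 60 by 0.53 ± 0.18 (adjusted p = 0.0480). Of 5 further luminal calcium-binding proteins, 1 rose and 2 fell over the whole span, beside 17.3% and 17.2% of all genes. CALR rose by 0.32 ± 0.11 (adjusted p = 0.0283), and CALU and RCN2 fell by 0.36 ± 0.10 (adjusted p = 0.0108) and by 0.38 ± 0.10 (adjusted p = 0.00766).

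Of 6 genes of the L-type channel and the T-tubule, 3 rose and 1 fell over the whole span, beside 17.3% and 17.2% of all genes. The channel subunits CACNB2 and CACNA2D1 rose by 0.61 ± 0.12 (log2, SE; edgeR adjusted p = 9.2e-04) and 0.48 ± 0.14 (adjusted p = 0.0161), and the pore gene CACNA1C was at 0.16 ± 0.12 (adjusted p = 0.317). CAV3, the muscle caveolin, rose by 3.03 ± 0.33 (adjusted p = 4.8e-06) from 1.12 to 9.17 CPM. BIN1, which shapes T-tubules, fell by 0.68 ± 0.23 (adjusted p = 0.0298), from 15.4 to 9.59 CPM.

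Of 10 kinase, phosphatase and phosphodiesterase genes, 3 rose and none fell over the whole span, beside 17.3% and 17.2% of all genes. These were CAMK2B (0.78 ± 0.13, edgeR adjusted p = 3.0e-04), PPP1R3A (1.32 ± 0.19, adjusted p = 5.6e-05) and PDE3A (1.70 ± 0.28, adjusted p = 2.2e-04). CAMK2A and PPP1CB rose to Day 60 by 0.51 ± 0.12 (adjusted p = 0.0117) and 0.35 ± 0.09 (adjusted p = 0.0257). CAMK2D, the main heart form of the kinase that acts on PLN and RYR2, was at -0.21 ± 0.10 (adjusted p = 0.114).

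Of 7 other pumps and exchangers, none rose and 2 fell over the whole span, beside 17.3% and 17.2% of all genes. The surface pumps ATP2B1 and ATP2B4 fell by 0.58 ± 0.13 (edgeR adjusted p = 0.00268) and 0.46 ± 0.13 (adjusted p = 0.0110). Of 4 store-operated entry genes, 1 rose and 2 fell over that span, beside the same shares. STIM2 rose by 0.63 ± 0.13 (adjusted p = 0.00160), and ORAI1 and ORAI3 fell by 0.76 ± 0.13 (adjusted p = 2.5e-04) and 1.05 ± 0.13 (adjusted p = 2.0e-05). STIM1 fell to Day 60 by 0.81 ± 0.22 (adjusted p = 0.0294) and then rose by 0.88 ± 0.23 (adjusted p = 0.0101). Among 5 other release channels, none was called over the whole span. To Day 60, 1 fell, beside 5.91% of all genes, and after it 2 rose, beside 12.9%. ITPR2 fell to Day 60 by 1.05 ± 0.27 (adjusted p = 0.0202) and then rose by 1.61 ± 0.27 (adjusted p = 6.1e-04). ITPR1 rose after Day 60 by 0.67 ± 0.21 (adjusted p = 0.0325). The small pump regulators in the table, ARLN (listed as C4orf3) and STRIT1 (listed as DWORF), passed in no comparison.

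**Figure D5:**
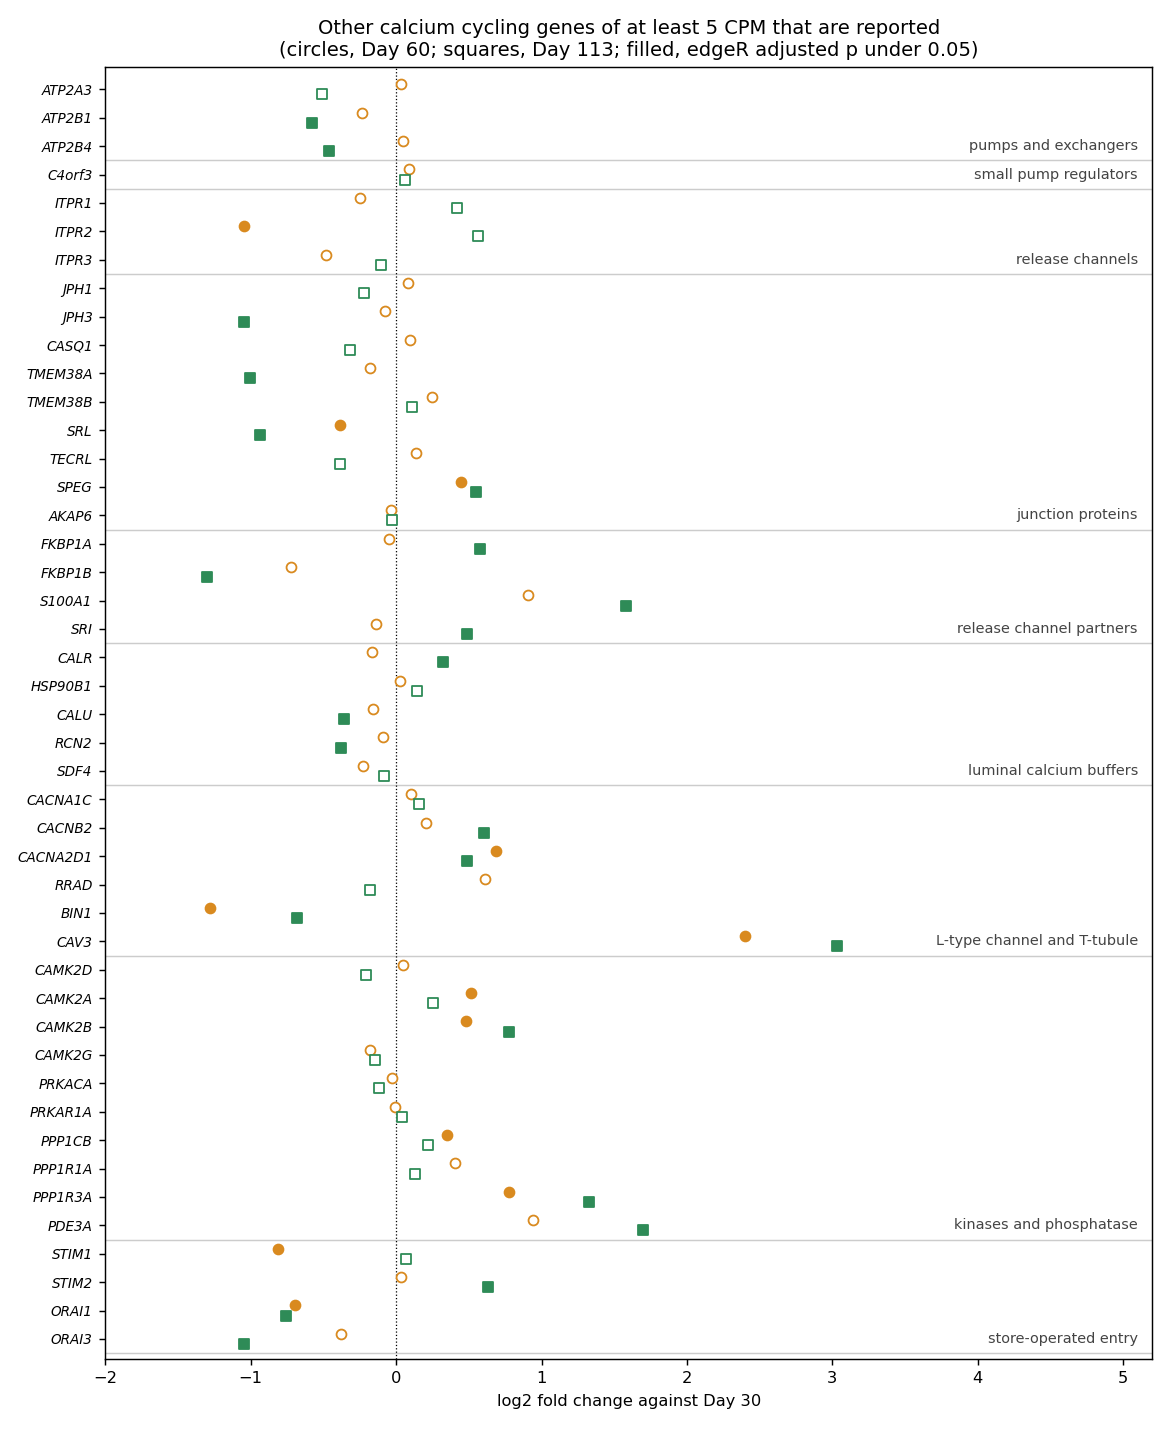
Log2 fold change against Day 30 (x axis) of the other calcium cycling genes of at least 5 CPM that are reported, grouped by role (y axis), with circles for Day 60, squares for Day 113 and filled symbols for an edgeR adjusted p under 0.05. CAV3 lies farthest to the right at Day 113 (3.03) and FKBP1B farthest to the left at that day (-1.30).

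For each of the 10 genes the 3 most alike in log2 CPM over the 11 libraries were sought among 10347 others of at least 10 CPM. The points share their day and well, so r is a description of these libraries. CASQ2 was most like ABCC9 (Pearson r = 0.989, n = 11), ZFP91 (0.971) and GPR22 (0.971). RYR2 was most like TTN (0.987), DST (0.975) and MEF2A (0.962), with the low well of Day 113 among the points. HRC was most like PXN (0.983), PPP1R13L (0.982) and BCKDHA (0.979), SLN like MTAP (0.975), PLN like KLHL31 (0.972), and ASPH like FBXL17 (0.969). For ATP2A2, TRDN, JPH2 and SLC8A1 the nearest gene reached 0.912 (KDM7A-DT), 0.897 (CORIN), 0.920 (A4GALT) and 0.932 (KDM7A). Among the 10 genes themselves the highest r was 0.806, for HRC and ASPH, and the lowest was -0.753, for SLN and CASQ2.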

How the data were processed

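Poly(A) RNA from 11 wells was sequenced as paired reads per the labels' protocols. Per the submitters' processing notes, the tools were STAR 2.5.3a and featureCounts 2.0.3 and the build was hg38; strand setting and annotation are not given in the sources used here. The deposited table holds raw counts per gene for 19990 genes. The authors also deposited TPM values; the gene length implied by count over TPM differed between libraries by a median of 73.6-fold (largest over smallest), so TPM was checked and not used.

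Counts were fitted in R 4.3.3 with edgeR 4.0.16 (TMM, filterByExpr with a minimum count of 10, which removed no gene, quasi-likelihood test, all 3 days in 1 fit). Benjamini-Hochberg adjustment ran over all genes with a threshold of 0.05. The steps were tested on simulated data. Ratios within libraries used a pseudocount of 0.5 and 2-sided exact permutation tests (scipy 1.17.1). Alternatives used DESeq2 1.42.0, limma 3.58.1, other scalings and filters, a replicate block and each well left out. Lengths and positions came from GENCODE v29, promoters from RefSeq. Libraries of 24071375 to 34546715 counts differed within a day by more than sampling noise, so none was the same library sequenced again. The check cannot tell whether 2 libraries were made from the same well. The labels give wells the same replicate numbers at each day. Deviations of same-numbered wells correlated at 0.163, 0.144, 0.119 and 0.145 between Day 30 and Day 113, over 0.1 for each of the 4 pairs. With Day 60, 1 pair each fell below (0.0477 and 0.0014). The main fit and the main ratio tests did not pair the wells. The number was used only in the replicate block among the alternatives.

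Named were all 10 genes, other calcium cycling genes called in at least 1 comparison at 5 CPM or more, the 3 genes most alike to each member, overlapping genes and marker lists. Some listed genes are counted but not reported here by name. The members and lists were chosen with earlier results of these data known.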

Additional observations from a re-analysis of the deposited data

Results flagged for a closer look

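For PLN the change after Day 60 minus the change before it was -1.03 on the log2 scale (edgeR adjusted p = 0.00954), since a rise was followed by a fall. For HRC the same difference was -0.92 (edgeR adjusted p = 0.00934), since a fall followed a step with no called change. A test of the difference between the 2 steps singled out these genes, and each lost its call when Day 60 replicate 1 was left out (adjusted p = 0.0786 and 0.0756). In the 34 groups of 4 wells examined for a single well far from the others, 0 passed Dixon's critical value of 0.829, where chance gives about 1 in 20. RYR2 at Day 113 did not pass, with replicate 2 at 483.4 CPM and the other wells at 844.1 to 919.3 CPM. Day 60, with 3 wells, was not examined, so its replicate 1 was not covered.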

How the results depend on the processing

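Of 870 refitted changes of the 10 genes, 811 kept their direction and their side of the threshold, 9 lost a call, 14 gained one and 36 changed sign. The 811 include the fit with no filter on low counts, which could only repeat the main fit because the filter removed no gene. Of 273 refitted ratios 4 changed sign. Scaled to cardiomyocyte genes, 1149 genes were called for Day 60 against Day 30, 3001 for Day 113 against Day 60 and 807 for the difference between the steps, against 2060, 4790 and 1868. Under that scaling HRC to Day 60 was -0.031, JPH2 and TRDN after Day 60 were -0.030 and -0.14, and over the whole span ATP2A2, JPH2, RYR2 and TRDN were -0.24, -0.14, -0.22 and -0.12, all uncalled. With upper-quartile scaling ATP2A2 and RYR2 over the span were -0.0059 and -0.0030, with limma-voom RYR2 was -0.012 and SLN after Day 60 was 0.026, and with library totals TRDN between the steps was 0.013. The number of the 10 genes called for the difference between the steps was 4 with DESeq2. The cause of these shifts was not tested.

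With the replicate block 2474, 4954 and 7143 genes were called for the 3 comparisons, and 5 of the 10 genes for the difference between the steps. RYR2 over the span was -0.0023 and SLN after Day 60 was 0.16, both uncalled. SLC8A1 was gained over the span, and no other of the 10 genes changed its call there. ATP2A2 was gained in the steps to and from Day 60 (0.36 and -0.35, edgeR adjusted p = 0.0271 and 0.0195). In pairs with Day 60, not every well correlated best with its own number. On all 3 days the labels give a number alone.

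Leaving out 1 well at a time gave 1220 to 2618 calls to Day 60, 3317 to 4735 after it, 5657 to 6977 over the span and 643 to 2221 for the difference between the steps, where 0 to 3 of the 10 genes were called. The lowest first count came on dropping Day 60 replicate 3, and the lowest last count and the 0 on dropping Day 60 replicate 1. The first count was 1323 when Day 30 replicate 2 was dropped and 1259 when Day 60 replicate 1 was, and the last was 774 when Day 60 replicate 3 was. Over the span ATP2A2 ran from -0.072 to 0.079, PLN from -0.080 to 0.045 and RYR2 from -0.071 to 0.19. After Day 60 SLN ran from -0.24 to 0.46 and TRDN from -0.056 to 0.15. To Day 60 HRC ran from -0.036 to 0.15 and JPH2 from -0.13 to 0.069. Between the steps SLC8A1 ran from -0.28 to 0.051 and TRDN from -0.27 to 0.14. The ratios over the span ran from -0.11 to 0.27 for JPH2 to RYR2, -0.14 to 0.056 for PLN to ATP2A2 and -0.020 to 0.28 for TRDN to RYR2, and SLC8A1 to ATP2A2 after Day 60 from -0.0047 to 0.24. Where leaving out a well left 3 wells against 3, the smallest exact p of a ratio was 0.1.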
